A study of Mus musculus with 6 samples.

Results

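The endothelial genes of the liver were followed in whole-liver RNA from mice bred to lose 1 copy of Cebpb in Kupffer cells. Kupffer cells are macrophages that live in the liver sinusoids, and the loss in those cells was not measured here. The 36 genes were chosen by name as genes of sinusoidal endothelium, of endothelium in general and of the Wnt signals of central vein endothelium, out of 17119 gene symbols in the count table. None of them was lost to the low-count filter, so all 36 were among the 12706 genes tested. RNA was taken from liver tissue of mice, 6 samples in all, after 12 weeks of feeding a high-fat, high-cholesterol diet (HFHCD), of a kind that brings on steatohepatitis, a fatty liver with inflammation. The 3 wild-type samples carried Clec4f-iCre with both Cebpb alleles intact (Cebpb+/+), and the 3 heterozygous samples, from the same litters, carried Clec4f-iCre with 1 floxed allele (Cebpbfl/+). Both groups thus carried the recombinase under the promoter of Clec4f, a gene of Kupffer cells and not of endothelium, and both received the same diet, so there was no group without the recombinase or on a normal diet. The genotype labels of replicates 2 and 3 in each group name Clec5f-iCre and Clec6f-iCre, whereas the description of the design has Clec4f only, and is taken as right here. Age, sex and whether each library is 1 animal are not stated in the labels, so the p-values reflect variation among these 6 libraries, which may be technical. Which samples share a litter is not stated either, and the main fit takes no account of litters.

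Sinusoidal endothelial cells line the blood channels between plates of hepatocytes. They are perforated by fenestrae, have no continuous basement membrane and clear waste macromolecules from blood through scavenger receptors and lectins. Endothelium around the central vein secretes Wnt2, Wnt9b and R-spondin 3, which keep neighbouring hepatocytes in the pericentral state. In fibrosing livers sinusoidal endothelium can lose these features and take on those of ordinary capillaries, a change called capillarisation.

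Library totals ran from 16895322 to 17750755 counts. Levels are in CPM, counts relative to library size times the TMM factor, and a positive log2 fold change (± SE) means a higher level in heterozygous livers. The targeted gene Cebpb stood at 385 ± 106 CPM in wild-type livers against 324 ± 154 CPM in heterozygous ones (SD, n = 3 each), with overlapping groups (log2 fold change −0.25 ± 0.37, edgeR adjusted p = 0.864). These values also hold RNA of cells in which the promoter is not active, and its part was not tested. The liver was recognisable by its hepatocyte markers, of which all 6 in the table were tested, with Alb at 66250 to 95210 CPM. Markers of macrophages and Kupffer cells moved with the groups. Their summed level over 13 genes was 888 to 1509 CPM in wild-type livers against 410 to 465 CPM in heterozygous ones. By edgeR at an adjusted p of 0.05, 5 of the 13 were called lower (C1qa, C1qb, Cd68, Lyz2 and Spi1) and 0 higher. Of all genes tested, 0.559% were called lower and 0.0236% higher. Another test, limma-voom, called 0 of all genes, as did edgeR without heterozygous replicate 1 or 2. In RNA of whole tissue, fewer cells of a type and less RNA per cell cannot be told apart.

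None of the 36 endothelial genes passed an edgeR adjusted p of 0.05, against 0.582% of all genes tested (74 of 12706, 0.0236% higher and 0.559% lower). At an unadjusted p of 0.05 there were 8 members higher and 2 lower in the heterozygous livers, where 4.2% and 9% of all genes tested were. DESeq2 called 2 members, Tek and Cdh13, both higher, against 4.2% of all genes (0.645% called higher), and limma-voom called 0. With no filter on low counts edgeR called 0 members as well, and 1.27% of all genes. The members, chosen with earlier results of these data known, leaned upward by a small amount. Their median log2 fold change was 0.18, against 0.00 over all genes tested, and 22 were positive and 14 negative, which makes 61.1% positive against 51% of all genes. In 11 members the 2 groups had separate ranges, 9 with every heterozygous library higher and 2 with every one lower. Over all genes tested, 18.4% had groups that did not overlap, 7.05% with heterozygous higher and 11.3% with heterozygous lower. The 9 higher ones were Clec4g, Ehd3, Fam167b, Gata4, Tek, Ptprb, Cdh13, S1pr1 and Efnb2, and the 2 lower ones were Pecam1 and Plvap. The 36 genes together took 0.0794% to 0.110% of the counts of a library, and their summed level was 916 ± 71.7 CPM in wild-type livers against 1019 ± 93.2 CPM in heterozygous ones (SD, n = 3 each).

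**Figure D1:**
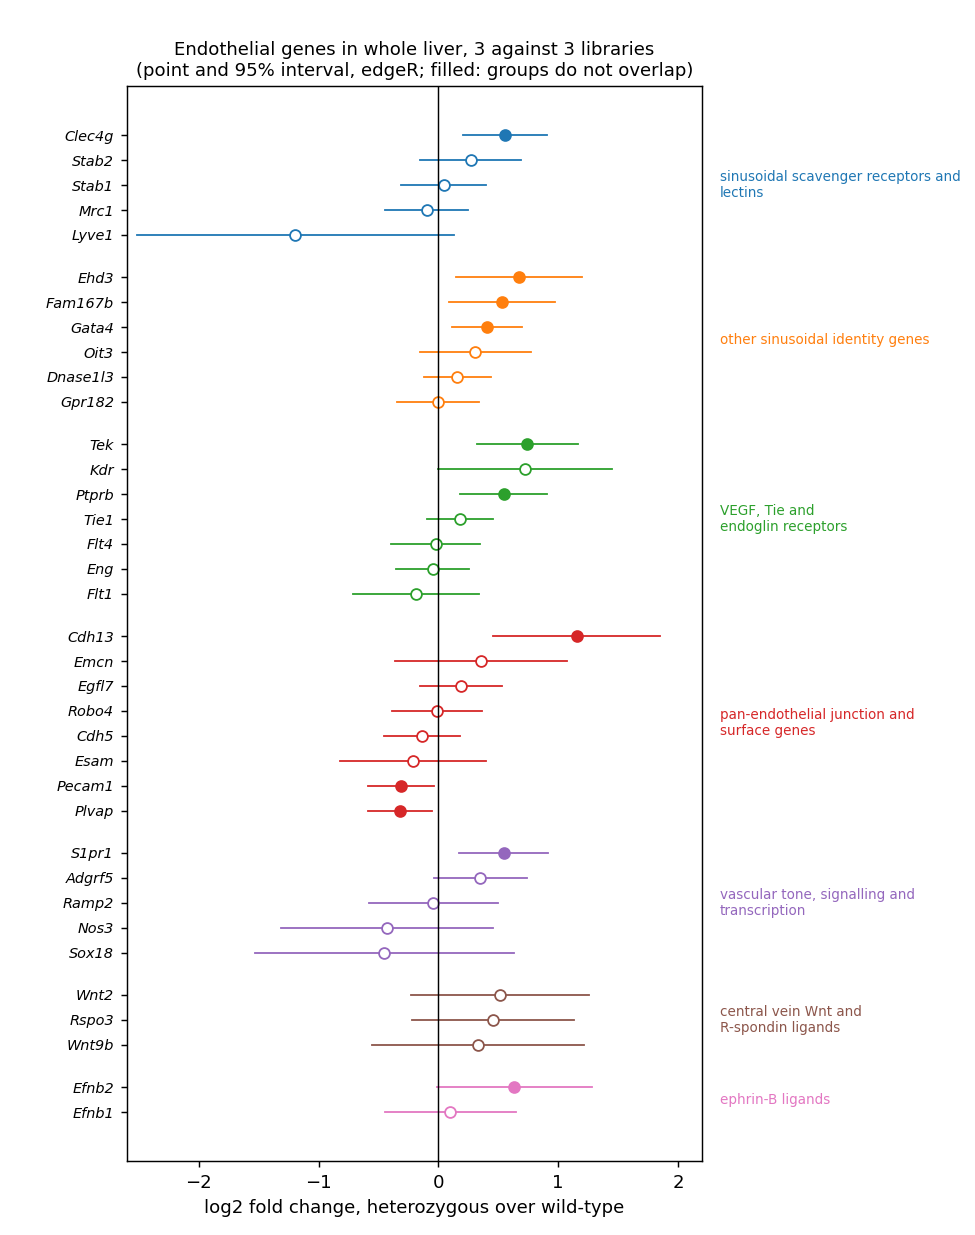
Log2 fold change, heterozygous over wild-type, of each of the 36 endothelial genes (point) with its 95% interval from edgeR (line), in blocks by role; filled points mark genes whose groups do not overlap. The filled points to the right of 0 are the 9 genes from Clec4g to Efnb2, and those to the left are Pecam1 and Plvap.

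Levels of different genes were set side by side per length, as CPM per kilobase of exon. Plvap, a protein of endothelial pore diaphragms, was the most abundant at 40.8 ± 1.41 CPM per kilobase in wild-type livers (SD, n = 3). Eng, a co-receptor for bone morphogenetic proteins, followed at 24.5 ± 3.58, then the lectin gene Clec4g at 17.6 ± 3.39 and Dnase1l3, which encodes a secreted nuclease, at 14.6 ± 1.67 CPM per kilobase. The wild-type libraries of Plvap, Eng and Clec4g did not overlap in this order, and those of Clec4g and Dnase1l3 did. At the low end stood Wnt9b at 0.233 ± 0.0721, Efnb2 at 0.332 ± 0.0726 and Cdh13 at 0.482 ± 0.152 CPM per kilobase. Wnt9b rested on only 15 to 32 counts in a library, Efnb2 on 22 to 48 and Cdh13 on 19 to 79, so their values carry more counting error than those of the abundant members, and the wild-type levels of neighbours in this order overlapped. The pan-endothelial marker genes Pecam1 and Cdh5 stood at 5.58 ± 0.182 and 7.66 ± 0.789 CPM per kilobase, so endothelial RNA was present in every library.

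Among the sinusoidal scavenger receptors and lectins, Clec4g differed most evenly between the groups. Clec4g, which encodes LSECtin, a lectin of sinusoidal endothelium, measured 42.8, 34.4 and 50.8 CPM in replicates 1, 2 and 3 of the wild-type and 62.6, 69.4 and 55.9 CPM in the heterozygous replicates. All 3 heterozygous libraries lay above the wild-type ones, 1.47-fold in the fit (log2 fold change 0.55 ± 0.16, edgeR adjusted p = 0.142). Lyve1, a hyaluronan receptor of sinusoidal and lymphatic endothelium that some macrophages also carry, measured 28.9, 12.2 and 20.1 CPM in wild-type livers against 3.90, 8.24 and 14.6 CPM in heterozygous ones. It had the most negative fold change of the 36 genes, but wild-type replicate 2 lay below heterozygous replicate 3, and the interval was wide (−1.19 on the log2 scale, 95% interval from −2.52 to 0.13, adjusted p = 0.438 by edgeR). Stab2, the main clearance receptor for hyaluronan, measured 36.4, 49.9 and 50.0 CPM in wild-type livers against 50.5, 68.9 and 45.3 CPM in heterozygous ones, with overlap (log2 fold change 0.27 ± 0.19, edgeR adjusted p = 0.619). Stab1, a scavenger receptor of sinusoidal endothelium and macrophages, had group means of 73.2 ± 2.0 and 75.5 ± 16.1 CPM, and the mannose receptor gene Mrc1, also shared with macrophages, 36.8 ± 4.85 and 34.4 ± 6.04 CPM (SD, n = 3 each). The 95% intervals of their log2 fold changes were −0.31 to 0.40 for Stab1 and −0.45 to 0.25 for Mrc1. The 13 macrophage markers had a median of −1.22. One of them, Clec4f, measured 48.6, 38.5 and 5.42 CPM in wild-type livers against 4.31, 4.97 and 3.90 CPM in heterozygous ones, with wild-type replicate 3 close to the heterozygous libraries. The part of macrophage RNA in the values of Stab1, Mrc1 and Lyve1 was not tested.

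The other sinusoidal identity genes had a median log2 fold change of 0.36, with 5 of 6 positive and 3 of 6 without overlap between groups. Of all genes tested, 51% were positive and 18.4% had no overlap, 7.05% with heterozygous higher. Gata4, the transcription factor gene that keeps sinusoidal endothelium discontinuous, measured 16.2, 18.7 and 16.5 CPM in wild-type livers against 25.0, 22.8 and 20.3 CPM in heterozygous ones. Its heterozygous libraries were all higher, by 1.33-fold (log2 fold change 0.41 ± 0.13, edgeR adjusted p = 0.186), and stellate cells can also express this gene. The summed level of 8 stellate cell markers was 400.1 to 499.7 CPM in wild-type livers against 291 to 380 CPM in heterozygous ones, most of it from Dcn and Col1a1, which were lower in each heterozygous library. The other 6 overlapped. Their log2 fold changes were 0.14 (Lrat), −0.01 (Des), −0.22 (Ngfr), −0.31 (Reln), −0.36 (Hgf) and −0.59 (Pdgfrb). Over the 8 markers the median was −0.33, with 7 negative and 0 past the threshold. The part of stellate cells in the Gata4 value was not tested. Ehd3, which encodes a membrane trafficking protein of the endocytic route, measured 30.7, 47.2 and 60.1 CPM in wild-type livers against 77.1, 78.5 and 64.7 CPM in heterozygous ones. The wild-type libraries of Ehd3 spread over a wider range than the heterozygous ones, and the fold of 1.60 had an edgeR adjusted p of 0.237. Fam167b, a small gene enriched in liver endothelium, measured 3.48, 3.70 and 4.27 CPM in wild-type livers against 5.13, 6.06 and 5.39 CPM in heterozygous ones, again without overlap (1.45-fold, edgeR adjusted p = 0.273). The remaining 3 genes of this role overlapped between groups. Oit3, which encodes a secreted protein of sinusoidal endothelium, averaged 23.2 ± 5.65 and 28.7 ± 5.69 CPM, and Dnase1l3 69.3 ± 7.93 and 77.3 ± 6.58 CPM (SD, n = 3 each). Gpr182, a chemokine-scavenging receptor gene of endothelium, averaged 22.1 ± 2.99 and 22.1 ± 3.51 CPM (log2 fold change 95% interval −0.35 to 0.34).

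**Figure D2:**
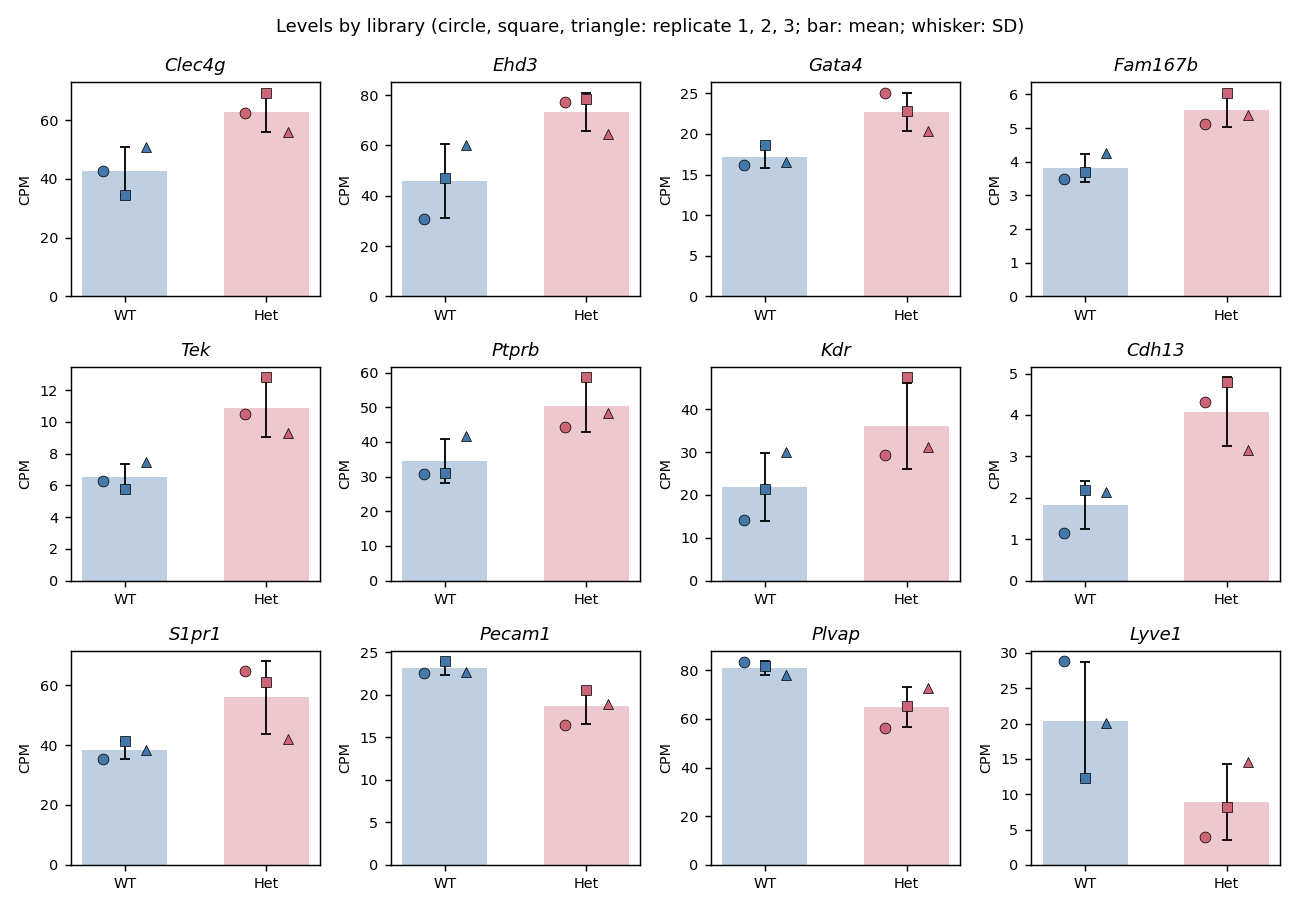
CPM of 12 endothelial genes in the 3 wild-type (WT) and 3 heterozygous (Het) libraries; symbols are libraries, bars group means and whiskers the SD. Clec4g, Ehd3, Gata4, Fam167b, Tek, Ptprb, Cdh13 and S1pr1 lie higher in each heterozygous library, Pecam1 and Plvap lower, and Kdr and Lyve1 overlap.

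The VEGF and angiopoietin receptors did not share 1 direction. Tek, which encodes the angiopoietin receptor TIE2, measured 6.28, 5.77 and 7.44 CPM in wild-type livers against 10.5, 12.8 and 9.29 CPM in heterozygous ones. All heterozygous libraries were higher, by 1.67-fold (log2 fold change 0.74 ± 0.19, edgeR adjusted p = 0.111), and DESeq2 called the gene (adjusted p = 0.0270). Ptprb, the endothelial phosphatase that acts on TIE2 and VE-cadherin, measured 30.7, 31.2 and 41.9 CPM in wild-type livers against 44.2, 58.8 and 48.3 CPM in heterozygous ones. It too lay higher in each heterozygous library, by 1.46-fold (log2 fold change 0.54 ± 0.16, edgeR adjusted p = 0.158). Kdr, the main VEGF receptor of endothelium (VEGFR2), measured 14.2, 21.4 and 29.9 CPM in wild-type livers against 29.4, 47.6 and 31.2 CPM in heterozygous ones. The lowest heterozygous library of Kdr lay just under the highest wild-type one (1.65-fold, edgeR adjusted p = 0.380). Tie1, the partner receptor of TIE2 that binds no angiopoietin itself, averaged 15.2 ± 1.15 and 17.2 ± 0.837 CPM (SD, n = 3 each). Flt1 (VEGFR1), which binds VEGF with little signalling, averaged 12.0 ± 2.0 and 10.5 ± 3.31 CPM. Flt4 (VEGFR3), the receptor of VEGF-C, averaged 32.2 ± 3.15 and 31.8 ± 6.99 CPM, and Eng 87.6 ± 12.8 and 84.7 ± 8.03 CPM. The log2 fold changes of Flt1, Flt4 and Eng were −0.19, −0.02 and −0.05, each with overlapping groups.

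Ratios of 2 members within a library do not depend on how libraries are scaled, and 4 such ratios were formed after the values were seen, so they carry no test. The count ratio of Tek to Tie1 was 0.420, 0.408 and 0.453 in the wild-type libraries and 0.645, 0.734 and 0.521 in the heterozygous ones. Averaged on the log2 scale, the heterozygous ratio was 1.47-fold the wild-type one. Ptprb to Cdh5, the gene of VE-cadherin, gave 0.947, 0.960 and 1.55 in wild-type and 1.76, 1.80 and 1.88 in heterozygous livers. Kdr to Flt1 gave 1.0, 2.09 and 2.61 in wild-type and 3.69, 3.35 and 3.38 in heterozygous livers, with wild-type replicate 1 the lowest. Tek to Pecam1 had the largest shift of the 4, from 0.282 ± 0.0435 to 0.585 ± 0.0803 (SD, n = 3 each). Each ratio sets a member with a larger positive log2 fold change over one with a smaller (Tie1, 0.18) or negative one. Kdr and Tie1 themselves had overlapping groups. The pairs were picked on these values, so the separation of the groups supports nothing further.

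The pan-endothelial junction and surface genes had a median log2 fold change of −0.08, with 3 of 8 positive. Pecam1, the adhesion molecule CD31, measured 22.6, 23.9 and 22.7 CPM in wild-type livers against 16.4, 20.6 and 18.9 CPM in heterozygous ones. The 3 heterozygous libraries were lower, by 1.24-fold (log2 fold change −0.31 ± 0.12, edgeR adjusted p = 0.314), and leukocytes and platelets also carry this molecule. The 7 T and NK cell markers summed to 13.4 to 18.9 CPM in wild-type livers against 7.11 to 9.38 CPM in heterozygous ones. Of these 7, 0 passed the threshold and 5 were lower at an unadjusted edgeR p of 0.05, where 9% of all genes tested were. The 13 macrophage markers, also of leukocytes, summed to 888 to 1509 CPM in wild-type livers against 410 to 465 CPM in heterozygous ones. The part of these cells in the Pecam1 value was not tested. Plvap measured 83.4, 81.7 and 77.9 CPM in wild-type livers against 56.3, 65.5 and 72.8 CPM in heterozygous ones, likewise lower in each (1.25-fold, edgeR adjusted p = 0.278). Cdh13, which encodes T-cadherin, a cadherin without a transmembrane domain that binds adiponectin, went the other way. It measured 1.16, 2.18 and 2.13 CPM in wild-type livers against 4.31, 4.79 and 3.15 CPM in heterozygous ones, the largest upward fold of the 36 genes (2.22-fold, log2 fold change 1.15 ± 0.31, edgeR adjusted p = 0.128, DESeq2 adjusted p = 0.0280). Cdh5, Esam and Robo4, all genes of endothelial contacts, had log2 fold changes of −0.14, −0.21 and −0.01, and those of Egfl7, a secreted endothelial factor, and Emcn, a sialomucin of veins and capillaries, were 0.19 and 0.36. Each of these 5 had overlapping groups, and edgeR adjusted p-values ran from 0.698 to 0.989.

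Among genes of vascular tone and signalling, S1pr1, the receptor through which sphingosine 1-phosphate stabilises endothelial junctions, measured 35.4, 41.2 and 38.4 CPM in wild-type livers against 64.8, 60.9 and 42.2 CPM in heterozygous ones. Heterozygous replicate 3 lay just above the wild-type range and the other two further above (1.46-fold, log2 fold change 0.54 ± 0.16, edgeR adjusted p = 0.167). Without heterozygous replicate 3, S1pr1 passed the threshold (log2 fold change 0.71, edgeR adjusted p = 0.0464), the 1 member called in that fit, where 0.945% of all genes were called. Adgrf5, an adhesion G protein-coupled receptor gene, measured 27.3, 23.0 and 29.2 CPM in wild-type livers against 27.3, 42.1 and 32.0 CPM in heterozygous ones, and wild-type replicate 1 and heterozygous replicate 1 were level. Nos3, the endothelial nitric oxide synthase, measured 13.7, 5.06 and 6.57 CPM in wild-type livers against 4.72, 6.24 and 7.74 CPM in heterozygous ones. Its negative log2 fold change of −0.43 rested on wild-type replicate 1 and became 0.12 without that library. In an annotation of GRCm38 (GENCODE M21), 1040 of the 4132 exon bases of Nos3 also lie in Gm15587 and 294 in Atg9b. Another 7 members overlap a neighbour, from 61 bases in Eng to 404 in Rspo3, with Clec4g at 115 of 2430. The neighbour lies on the opposite strand except for Egfl7, which shares 264 bases with Gm20532 on its own strand. Since the strand setting of the counting is not given, reads of such stretches cannot be assigned with certainty. Ramp2, which makes the adrenomedullin receptor with the product of Calcrl, averaged 10.4 ± 0.855 and 10.1 ± 3.51 CPM, and Sox18, a transcription factor gene of blood and lymph vessels, 7.80 ± 3.09 and 5.70 ± 3.18 CPM (SD, n = 3 each). Calcrl itself, which is not one of the 36, averaged 4.42 ± 1.04 and 6.50 ± 1.29 CPM and was higher in each heterozygous library (edgeR adjusted p = 0.380). The summed level of the 5 genes of this role was 92.3, 85.5 and 96.6 CPM in wild-type livers against 112, 119 and 105 CPM in heterozygous ones, a difference carried by S1pr1 and Adgrf5.

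The central vein ligands were low and positive in all 3 cases, with overlap. Wnt2 measured 2.14, 1.96 and 2.46 CPM in wild-type livers against 1.86, 4.30 and 3.21 CPM in heterozygous ones (log2 fold change 0.51 ± 0.33, edgeR adjusted p = 0.584). Rspo3, whose product amplifies Wnt signals, measured 2.01, 4.57 and 3.89 CPM in wild-type livers against 5.42, 4.60 and 4.42 CPM in heterozygous ones (0.46 ± 0.30, edgeR adjusted p = 0.596). Wnt9b measured 0.915, 0.816 and 1.42 CPM in wild-type livers against 1.86, 0.969 and 1.15 CPM in heterozygous ones (0.33 ± 0.39, edgeR adjusted p = 0.811). The summed level of the 3 genes was 5.06, 7.35 and 7.77 CPM in wild-type livers against 9.14, 9.87 and 8.78 CPM in heterozygous ones. The sums did not overlap although each gene did. They rest on only 15 to 93 counts per gene and library, and how often such sums separate over all genes was not tested. Of the 17 pericentral Wnt target genes of hepatocytes, 0 passed the threshold, 13 were positive and the median log2 fold change was 0.11. Notum and Nkd1, both feedback inhibitors of Wnt signalling, were the 2 of the 17 whose groups did not overlap. Of all genes tested, 51% were positive and 18.4% had no overlap. Notum averaged 30.4 ± 7.82 and 45.9 ± 3.63 CPM (log2 fold change 0.60 ± 0.18, edgeR adjusted p = 0.164), and Nkd1 4.66 ± 0.628 and 7.35 ± 1.10 CPM (0.65 ± 0.20, edgeR adjusted p = 0.174). The log2 fold changes of the 17 ran from −0.46 (Rhbg) to 0.77 (Lgr5), both with overlap. Axin2, a general Wnt target, averaged 6.14 ± 4.07 and 6.18 ± 1.42 CPM. Glul, the glutamine synthetase of pericentral hepatocytes, averaged 891 ± 260 and 907 ± 59.5 CPM (SD, n = 3 each). Wild-type replicate 2 was the highest library for Axin2 and Glul. It was also the highest for the median of the 17 targets (0.46 above the mean on the log2 scale), while the median of the ligands there was −0.36. The median over 12 periportal hepatocyte genes was −0.09 and over 11 Wnt receptors and processing genes 0.06, with 0 past the threshold in both lists. Among the periportal genes Igfbp2 averaged 272 ± 26.8 and 411 ± 112 CPM with overlap, and Ass1, an enzyme of the urea cycle, 2257 ± 167 and 1669 ± 328 CPM, lower in each heterozygous library. Fzd6, a Wnt receptor gene, averaged 3.12 ± 1.17 and 5.79 ± 1.69 CPM with overlap (edgeR adjusted p = 0.299).

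**Figure D3:**
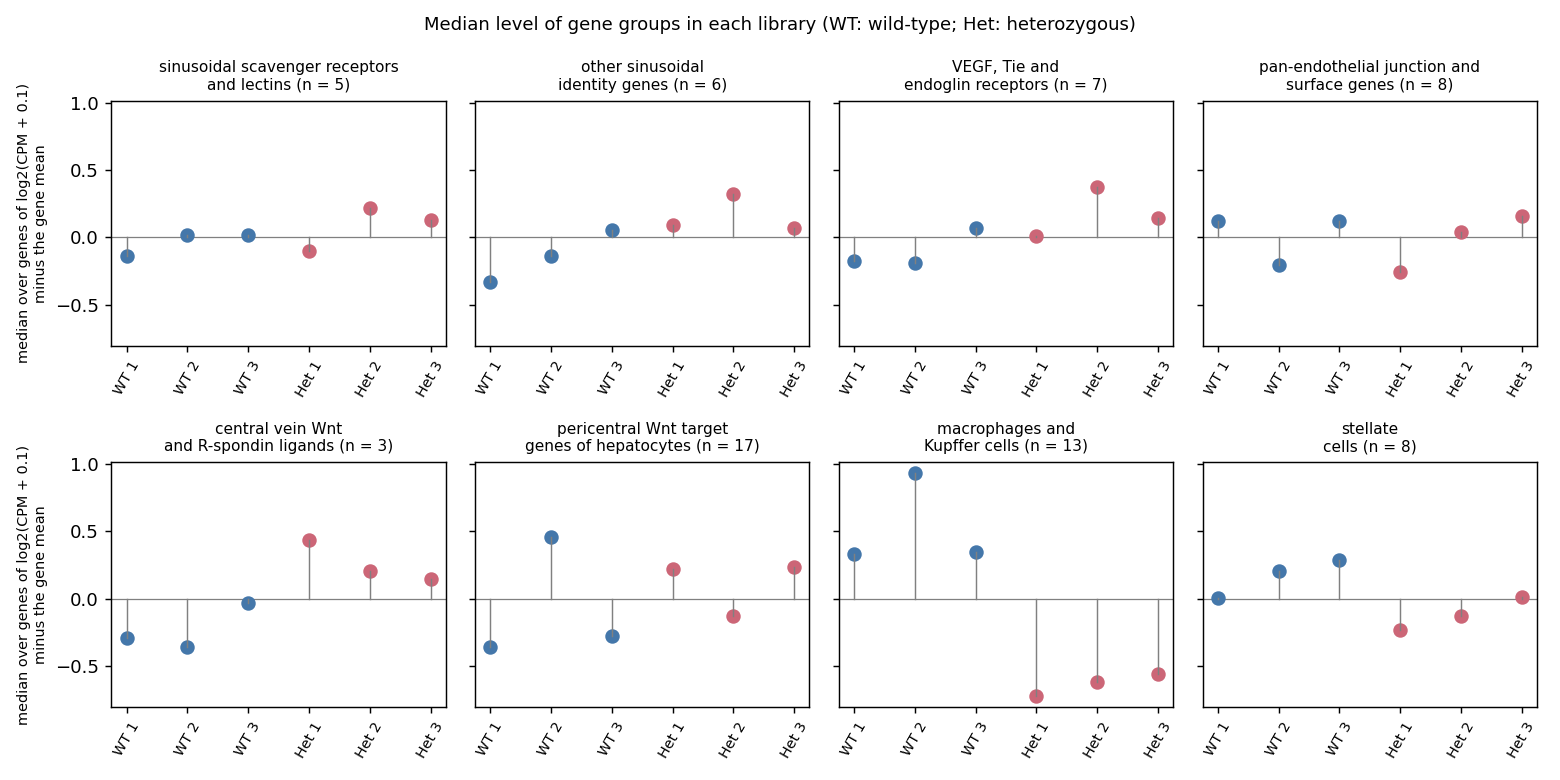
Median over the genes of a group of log2(CPM + 0.1) minus the gene's mean over 6 libraries, for each wild-type (WT, blue) and heterozygous (Het, red) library in 8 groups of genes. The central vein ligands, 3 genes of low counts that each overlap, lie at −0.36 to −0.03 in wild-type and 0.15 to 0.44 in heterozygous libraries. The other sinusoidal identity genes lie at −0.33 to 0.05 in wild-type and 0.07 to 0.32 in heterozygous libraries. The macrophage markers lie at 0.33 to 0.93 in wild-type and −0.72 to −0.56 in heterozygous libraries. The remaining groups, among them the pan-endothelial and pericentral target genes, overlap.

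Both ephrin-B ligands had positive log2 fold changes. Efnb2, the ligand of arterial endothelium, measured 1.71, 1.20 and 1.86 CPM in wild-type livers against 2.80, 2.42 and 2.18 CPM in heterozygous ones, with every heterozygous library higher (1.55-fold, log2 fold change 0.63 ± 0.29, edgeR adjusted p = 0.388). Efnb1 measured 11.7, 18.4 and 18.1 CPM in wild-type livers against 21.4, 12.3 and 17.9 CPM in heterozygous ones, with overlap (log2 fold change 0.10, 95% interval −0.45 to 0.65). Among 6 tested Eph receptors and other ephrins 0 passed the threshold. Ephb4, the venous receptor of ephrin-B2, averaged 21.9 ± 2.22 and 30.1 ± 9.15 CPM (SD, n = 3 each) and was higher in each heterozygous library (edgeR adjusted p = 0.379). Ephb2, another receptor of ephrin-B ligands, averaged 0.925 ± 0.193 and 0.428 ± 0.172 CPM and was lower in each (log2 fold change −1.09 ± 0.45, edgeR adjusted p = 0.338).

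The promoters of 3 members without overlap between groups are shown, as examples from different roles, with the letters found before their start sites. A RefSeq table of GRCm38.p6, an older build than the GRCm39 of the counts, held promoters for 20 of the 36 genes. Shown are the 250 bases before the start of Clec4g (chr8:3720652-3720901, minus strand), Fam167b (chr4:129578581-129578830, minus strand) and Tek (chr4:94739039-94739288, plus strand), 5′ to 3′ on the strand of the gene. Capitals mark matches on either strand to 3 motifs. For the ETS family, which includes Erg, the letters searched were AGGAAG. For the family of Gata4 they were AGATAA, and for the SOX family, which includes Sox18, they were ACAATG.
Clec4g: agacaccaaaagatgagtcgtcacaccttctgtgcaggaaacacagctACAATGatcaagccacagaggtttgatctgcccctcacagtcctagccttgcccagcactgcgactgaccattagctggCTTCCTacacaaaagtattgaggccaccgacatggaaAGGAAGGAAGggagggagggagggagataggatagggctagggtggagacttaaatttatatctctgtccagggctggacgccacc
Fam167b: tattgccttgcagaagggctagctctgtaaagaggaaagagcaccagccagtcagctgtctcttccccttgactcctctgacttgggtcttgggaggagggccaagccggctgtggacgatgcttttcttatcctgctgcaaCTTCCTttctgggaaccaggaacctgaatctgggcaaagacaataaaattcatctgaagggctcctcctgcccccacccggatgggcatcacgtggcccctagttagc
Tek: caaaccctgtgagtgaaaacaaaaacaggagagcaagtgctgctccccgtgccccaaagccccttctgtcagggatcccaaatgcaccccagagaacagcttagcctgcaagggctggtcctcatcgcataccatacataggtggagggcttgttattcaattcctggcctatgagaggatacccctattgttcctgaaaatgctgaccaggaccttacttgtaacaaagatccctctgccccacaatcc
Clec4g held 3 matches to the ETS letters, 2 of them overlapping, and 1 to the SOX letters, Fam167b held 1 ETS match and Tek none. Of the 20 genes, 13 had the ETS letters in at least 1 promoter, 0 the GATA letters and 1 the SOX letters. Counted by promoter, 14 of 23 held the ETS letters (60.9%), against 29.5% of all 32851 promoters of this length, and the GATA and SOX letters stood in 9.99% and 10.7% of all promoters. A match is a run of letters and not a measured binding site.

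Other genes of the same pathways, in 10 lists, included larger fold changes than any of the 36. Of the 105 genes tested 0 passed the edgeR threshold, where 0.582% of all genes did. In 14 of the 105 (13.3%) the groups did not overlap, where 18.4% of all genes had no overlap. Bmp2, an endothelial signal to hepatocytes in iron control, averaged 7.31 ± 1.49 and 15.4 ± 3.82 CPM (SD, n = 3 each; log2 fold change 1.07 ± 0.22, edgeR adjusted p = 0.0639). Fcgr2b, the immunoglobulin clearance receptor of sinusoidal endothelium, averaged 26.9 ± 4.15 and 36.4 ± 5.15 CPM without overlap. Among further sinusoidal and scavenger genes 9 of 12 were positive, with a median of 0.32. Icam1, an adhesion molecule induced by inflammation, was lower in each heterozygous library (37.9 ± 5.68 and 24.4 ± 3.17 CPM, log2 fold change −0.63 ± 0.15, edgeR adjusted p = 0.0915).

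Genes of large vessels and capillarised endothelium had 8 of 12 members tested, with a median of −0.15 and 0 past the threshold. Cd34, which marks capillary endothelium and some other cells, averaged 3.76 ± 0.800 and 1.79 ± 0.719 CPM and was lower in each heterozygous library (log2 fold change −1.07 ± 0.34, edgeR adjusted p = 0.190). Edn1, the vasoconstrictor endothelin 1, averaged 1.02 ± 0.438 and 0.408 ± 0.166 CPM with overlap (−1.31 ± 0.51, edgeR adjusted p = 0.301). Ligands and co-receptors of the VEGF and angiopoietin system had a median of 0.09 over 9 tested genes. Angpt2, the angiopoietin that endothelium releases when activated and that can oppose TIE2 signalling, averaged 2.89 ± 1.09 and 0.904 ± 0.446 CPM, lower in each heterozygous library where Tek was higher in each (log2 fold change −1.67 ± 0.44, edgeR adjusted p = 0.124, DESeq2 adjusted p = 0.0184). Vegfc, the ligand of Flt4, was also lower in each (5.71 ± 0.958 and 3.92 ± 0.641 CPM). In the list of sphingosine 1-phosphate, adrenomedullin and endoglin partners, 10 of 13 were negative and 0 passed the edgeR threshold. Acvrl1, the ALK1 receptor that works with endoglin, averaged 9.10 ± 2.05 and 4.67 ± 0.677 CPM (log2 fold change −0.96 ± 0.22, edgeR adjusted p = 0.0869), while the log2 fold change of Eng was −0.05. Sphk1, which makes sphingosine 1-phosphate, averaged 1.84 ± 0.781 and 0.567 ± 0.144 CPM (−1.68 ± 0.43, edgeR adjusted p = 0.116), in contrast to its receptor gene S1pr1. Gdf2, which encodes BMP9, a ligand of endoglin and ALK1, averaged 29.6 ± 7.54 and 21.6 ± 1.95 CPM with overlap (−0.45 ± 0.19, edgeR adjusted p = 0.352). Angpt2 and Sphk1 had only 7 to 21 and 7 to 12 counts in the heterozygous libraries. Icam1, Angpt2, Acvrl1, Sphk1 and Bmp2 were the 5 genes of these lists that DESeq2 called. Endothelial transcription factor genes and Notch pathway genes had medians of 0.14 and −0.08, over 11 and 6 tested genes, 0 past the threshold and 0 without overlap. Several of the lower genes are also expressed by macrophages or stellate cells, whose marker lists had medians of −1.22 and −0.33, and the part of these cells was not tested. Markers of cholangiocytes, the bile duct cells, summed to 106 to 154 CPM in wild-type livers against 60.9 to 98.5 CPM in heterozygous ones, most of it Spp1, which macrophages also express. Of the other cholangiocyte markers Krt7 was lower in each heterozygous library, and Krt19, Epcam and Sox9 overlapped, with log2 fold changes of 0.00, −0.51 and −0.14. Of 5 lymphatic markers only Prox1, which hepatocytes also express, was high enough to test, and the sums of lymphatic, B cell and red blood cell markers overlapped between groups. The listed markers Tf of hepatocytes and Ighm of B cells were not among the gene symbols of the count table. No other listed marker was at 0 in every library.

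**Figure D4:**
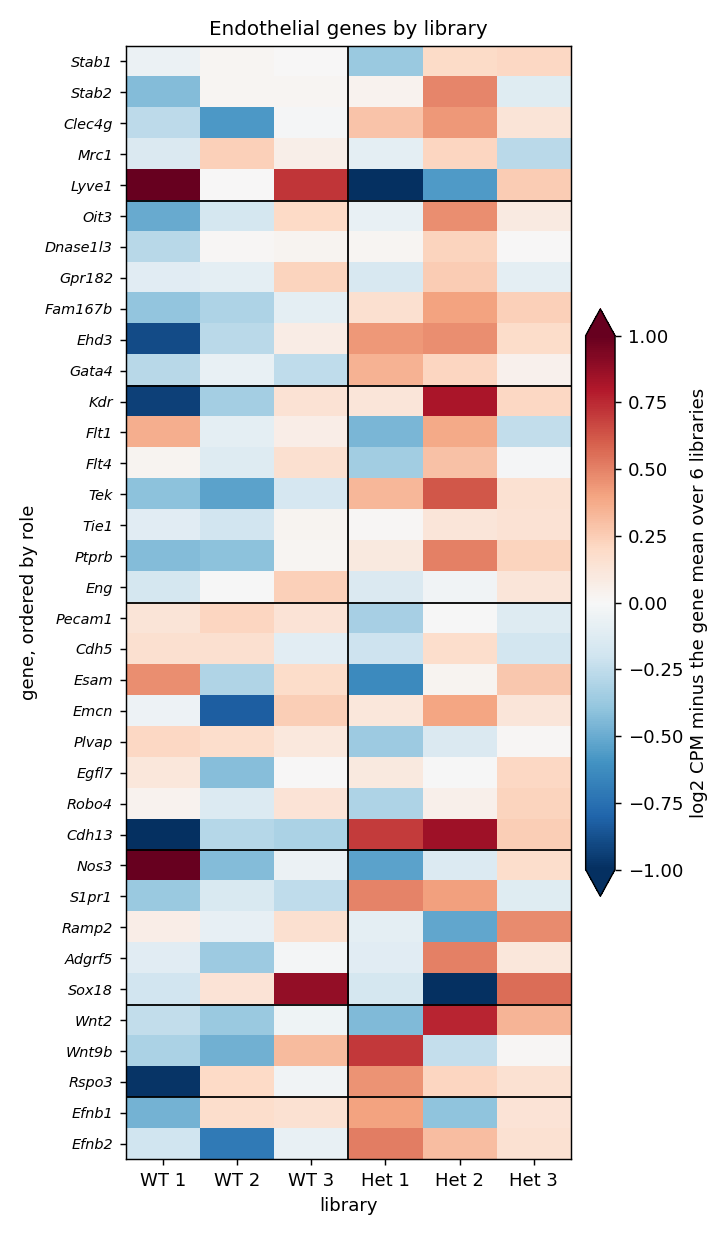
Log2 CPM minus the gene's mean over all 6 libraries for the 36 endothelial genes (rows, in blocks by role) in each wild-type (WT) and heterozygous (Het) library (columns); red is above and blue below the gene's mean, and values beyond 1 have the end colours. Heterozygous replicate 2 is the highest library for 17 genes and wild-type replicate 1 the lowest for 13.

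Single libraries weighed on the pattern. Heterozygous replicate 2 was the highest of the 6 libraries for 17 of the 36 genes, and the median of the members' deviations from their means was 0.22 there. Heterozygous replicate 1 was the lowest for 12 and the highest for 6, so heterozygous libraries lay at both ends. Wild-type replicate 1 was the lowest for 13 and the highest for 4, the latter Lyve1, Nos3, Esam and Plvap. The members' median log2 fold change was 0.15 when heterozygous replicate 2 and wild-type replicate 1 were both left out, with 22 positive. Stab2 then went from 0.27 to −0.05 and Kdr from 0.72 to 0.25, whereas Tek, Cdh13 and Gata4 kept log2 fold changes of 0.59, 0.80 and 0.38.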

How the data were processed

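RNA of whole liver was sequenced from 3 wild-type and 3 heterozygous samples, with libraries made by a stranded mRNA kit, per the labels' protocols. The authors deposited whole-number counts per gene symbol. Trimmomatic 0.36, HISAT2 2.2.1.0, HTSeq 0.9.1 and the build GRCm39 are named in the submitters' processing notes, and the strand setting of the counting is not given in the sources used here. Every row named a gene, and no column lacked a sample. The counts were tested with edgeR 4.0.16 in R 4.3.3 (filterByExpr, TMM, robust quasi-likelihood fit, Benjamini-Hochberg adjustment over all 12706 genes tested, threshold 0.05), without covariates. Alternatives were other scalings and filters, DESeq2 1.42.0, limma 3.58.1 voom, a non-robust fit, a replicate block and leaving out libraries. The fits were checked on simulated counts, with dispersions taken from these 6 libraries, for the size and direction of fold changes. No limit was set there on false calls. Replicate libraries differed by more than counting noise. CPM per kilobase used union exon lengths of GENCODE M21, and promoters came from RefSeq for GRCm38.p6, so no coordinate of GRCm39 is given. The members and lists were chosen with earlier results of these data known, and lists are described by counts and medians with no test. Values in every library are given for members without overlap between groups and for up to 3 members of each role with the smallest p. Of each related list up to 3 genes with the smallest p, where under 0.05, were named. Axin2, Glul, Lgr5, Rhbg and Calcrl were named after their values were seen. Intervals are 95%. Total counts of about equal depth (16895322 to 17750755) leave low members such as Wnt9b imprecise.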

Additional observations from a re-analysis of the deposited data

How the results depend on the processing

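The members' median log2 fold change stayed between 0.15 and 0.24 over all settings, with 22 to 27 positive. Groups did not overlap in 11 to 16 members, while the share of all genes without overlap ran from 16.6% to 44.8%. With wild-type 1 and heterozygous 2 both left out it was 15 members (41.7%), below the 44.8% of all genes. Over all genes, 50 passed the threshold with RLE size factors, 37 with upper-quartile factors, 0 with library totals alone (1492 at an unadjusted p of 0.05), 211 with no filter on low counts, 48 with at least 1 CPM in 3 libraries, 534 with DESeq2, 0 with limma-voom (1686 unadjusted) and 20 with a non-robust fit, against 74. Leaving out 1 library gave 0 to 122 (0 without heterozygous replicate 1 or 2, 4, 6 and 20 without wild-type replicate 1, 2 and 3, and 122 without heterozygous replicate 3), and leaving out wild-type 1 and heterozygous 2 together gave 4. Members past the threshold were 2 with DESeq2 (Tek and Cdh13), 0 to 1 when 1 library was left out (S1pr1 without heterozygous replicate 3) and 0 otherwise. Genes of the related lists past the threshold were 1 with no filter (Bmp2), 5 with DESeq2, 0 to 1 when 1 library was left out (Igfbp2 without heterozygous replicate 3) and 0 otherwise. The cause was not tested.

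Reversals were seen in members with fold changes near 0 and in Stab2, Nos3, Esam and Efnb1. Gpr182 (−0.00) became 0.0059 with RLE size factors or DESeq2 and 0.019 with no filter, and Robo4 became 0.0060 with no filter. Without wild-type 1 and heterozygous 2 together, Stab1 became −0.0489, Stab2 −0.0481, Nos3 0.11 and Ramp2 0.19. With 1 library left out, the ranges that crossed 0 were −0.05 to 0.23 for Stab1, −0.24 to 0.0076 for Mrc1, −0.14 to 0.12 for Gpr182, −0.19 to 0.14 for Flt4, −0.12 to 0.069 for Eng, −0.42 to 0.017 for Esam, −0.13 to 0.13 for Robo4, −0.69 to 0.12 for Nos3, −0.34 to 0.17 for Ramp2, −0.074 to 0.29 for Efnb1 and −0.70 to 0.016 for Cebpb.

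Whether the replicate numbers pair the samples is not stated, and 3 libraries per group are too few to settle it. Correlations of deviations between same-numbered libraries were −0.21, −0.31 and 0.19. Wild-type replicate 1 correlated best with heterozygous replicate 2 (0.42). With the replicate block 0 genes passed the threshold (1427 unadjusted), 0 of them members.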
